A study of Mus musculus with 24 samples.

Results

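The class II and class IV histone deacetylases are 7 genes: the class IIa enzymes *Hdac4*, *Hdac5*, *Hdac7* and *Hdac9*, the class IIb enzymes *Hdac6* and *Hdac10*, and the class IV enzyme *Hdac11*. They were taken by gene identifier from a table of 53801 genes, and their transcript levels were followed across the groups of a study of HDAC3 inhibition in mouse myeloid progenitors. The question was whether the transcripts of these deacetylases changed when HDAC3, a class I enzyme, was inhibited. The line used, ER-Hoxb8, consists of mouse granulocyte-monocyte progenitors that an estrogen-dependent Hoxb8 protein holds immature, and it differentiates toward neutrophils once beta-estradiol is removed. All groups carried this Hoxb8 system and had beta-estradiol washed away before treatment. The tested cells stably expressed human WT-ERG or human P199L-ERG, a mutant of this transcription factor, and the control cells carried the empty backbone vector (BB). Cells of each construct were treated for 36 h with 5 µM BRD3308, an HDAC3 inhibitor, or with its solvent DMSO. This gave 6 groups of 4 replicate libraries. The lines were made by lentiviral transduction and sorting, and the sources used here do not state separate transductions for the replicates. A difference between constructs and a difference between derived lines therefore cannot be told apart, and p values measure the spread between these libraries.

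Histone deacetylases remove acetyl groups from lysines. Class I enzymes such as HDAC1, HDAC2 and HDAC3 carry most of the activity on histones, and HDAC3 works inside the NCoR and SMRT corepressor complexes. Class IIa enzymes have little activity of their own on acetylated lysine. They bind MEF2 transcription factors, bring in NCoR with HDAC3, and leave the nucleus bound to 14-3-3 proteins when kinases of the CaMK, PKD and SIK families phosphorylate them. HDAC6 is mainly cytoplasmic and acts on tubulin and HSP90, HDAC10 deacetylates polyamines, and HDAC11 removes fatty acyl groups.

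BRD3308 raised transcripts of *Hdac7* and *Hdac9* in cells of all 3 constructs. It raised *Hdac4* in both ERG lines, and *Hdac6* passed the test in P199L-ERG cells. For both genes, the differences between the responses of the constructs did not pass in the main edgeR fit. *Hdac10* was lower after BRD3308 in both ERG lines, a call that in WT-ERG cells did not hold under several alternatives, *Hdac5* passed in no construct, and *Hdac11* was barely detected. The changes were small, from 1.11-fold for *Hdac7* in P199L-ERG cells to 1.70-fold for *Hdac9* in the same cells among genes that rose. Without the inhibitor, both ERG lines had less *Hdac4* and more *Hdac7* than BB cells. The *Hdac7* call was lost in WT-ERG cells without DMSO replicate 1 of BB, and in P199L-ERG cells when only the groups compared were fitted. The smaller *Hdac5* difference lost its call in both lines when certain single libraries were left out, and with scaling by library size alone.

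Libraries held 12510036 to 16280939 counts, and 12963 genes had enough reads for testing, among them 6 of the 7 deacetylases. Among DMSO-treated cells, replicate 4 of WT-ERG and replicate 4 of P199L-ERG were tilted toward short genes. Over 9818 genes, their departure from the mean of their group correlated with log2 exon length at -0.47 and -0.44, against -0.21 to 0.42 in the other 22 libraries. Calls of the deacetylases that changed without these libraries are given with and without them. The related gene lists, the marker sums and the sums over enzyme classes were not recomputed without them. Markers of granulocyte-monocyte progenitors were abundant, which fits the labelled cells, with sums of 23256 to 31451 CPM (counts scaled to library size) over 9 genes that include *Mpo* and *Elane*. *Hdac3* itself, the target of the inhibitor, did not pass the test for a response to BRD3308 in WT-ERG cells (log2 fold change 0.01), P199L-ERG cells (-0.07) or BB cells (-0.01). BRD3308 acts on the protein, so its transcript is no check of the labels.

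The upstream sequences of 3 class IIa genes are shown because their calls differed: *Hdac4* rose with BRD3308 in ERG lines, *Hdac9* had the largest fold changes, and *Hdac5* did not pass. The genes were not tested against each other, and a link between sequence and response was not tested. Each run is the 100 bases before a RefSeq transcription start (GRCm38.p6, minus strand, 5′ to 3′), and capitals mark the CCAAT box, the GC box motif GGGCGG or the MEF2 consensus on either strand. The *Hdac4* start lies within the span of the GENCODE gene.
Hdac4, chr1:92180342-92180441: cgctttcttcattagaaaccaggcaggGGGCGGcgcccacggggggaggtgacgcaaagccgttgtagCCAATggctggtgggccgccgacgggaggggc
Hdac5, chr11:102230173-102230272: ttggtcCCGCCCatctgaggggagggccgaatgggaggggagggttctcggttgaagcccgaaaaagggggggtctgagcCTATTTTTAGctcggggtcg
Hdac9, chr12:34917096-34917195: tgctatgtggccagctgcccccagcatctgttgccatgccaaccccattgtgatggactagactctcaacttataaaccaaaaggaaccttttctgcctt
Hdac9, second start, chr12:34528890-34528989: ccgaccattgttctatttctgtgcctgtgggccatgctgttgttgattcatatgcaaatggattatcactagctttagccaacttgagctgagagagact

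The RefSeq promoter table held 10 windows for 6 of the 7 genes, each searched over 250 bases before the start. Windows of *Hdac4*, *Hdac5*, *Hdac6* and *Hdac11* had both CCAAT and GGGCGG, which occurred in 33.8% and 32.7% of the 32851 windows of all genes. The window of *Hdac5* had a MEF2 consensus, found in 2.92% of all windows, and neither *Hdac9* window had any of the motifs searched. The ETS motif CCGGAAGT, searched because ERG is an ETS factor and found in 2.88% of all windows, was in none of the windows of these genes. One of the 4 *Hdac7* windows had GGGCGG. These matches are letters in the reference and not sites of binding.

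Levels were compared between genes as CPM per kilobase of exon (RPKM), averaged over 24 libraries. *Hdac5* had the highest level of the 7 genes at 9.29 ± 0.598 RPKM (SD over 24 libraries), followed by *Hdac7* at 7.47 ± 0.773 and *Hdac6* at 4.92 ± 0.352. *Hdac10* at 3.80 ± 0.539 and *Hdac4* at 3.64 ± 0.434 RPKM differed by less than their spread, and their order changed with the group. In DMSO-treated P199L-ERG cells *Hdac10* was at 4.55 ± 0.241 RPKM (SD, n = 4), beside *Hdac6* at 4.45 ± 0.0342 and *Hdac4* at 3.09 ± 0.142. In DMSO-treated BB cells *Hdac4* was at 3.94 ± 0.114 RPKM and *Hdac10* at 3.70 ± 0.372. *Hdac9* was far lower at 0.39 ± 0.10 RPKM, and its 48 to 119 reads per library give the widest confidence intervals of the tested genes. *Hdac5* lay above 60.2% of the 12950 genes ranked, *Hdac4* above 38.9% and *Hdac9* above 9.35%. Class I enzymes were higher in the same libraries, with *Hdac2* at 30.5 ± 2.81, *Hdac3* at 23.0 ± 1.21 and *Hdac1* at 18.7 ± 1.33 RPKM, except *Hdac8* at 2.97 ± 0.277.

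**Figure D1:**
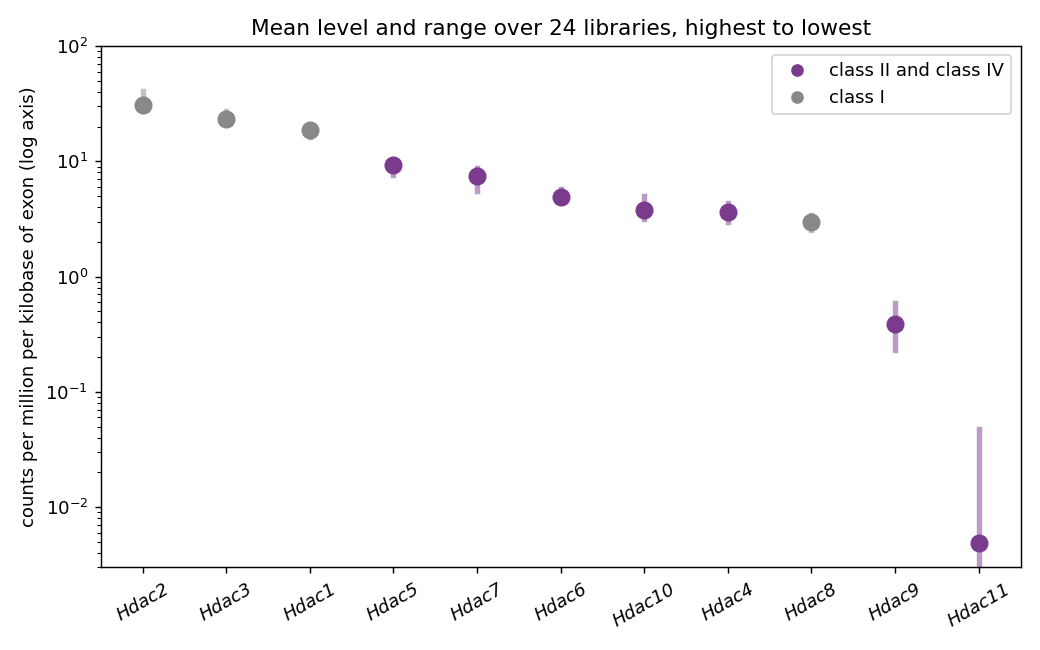
Mean level of each deacetylase (points) with the lowest and highest of 24 libraries (bars), in RPKM on a log axis. Class II and class IV genes are purple and class I genes grey. *Hdac5* and *Hdac7* lie below *Hdac1*, *Hdac2* and *Hdac3*, *Hdac9* is at 0.39 RPKM, and the bar of *Hdac11* runs off the axis because 20 libraries had no read.

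*Hdac11* (ENSMUSG00000034245, GRCm38 chromosome 6, 91156665 to 91174692, plus strand) had 7 reads in all, in 4 libraries. WT-ERG cells treated with BRD3308 had 1, 3, 0 and 0 reads and BB cells treated with BRD3308 had 0, 0, 2 and 0. DMSO-treated BB cells had 1, 0, 0 and 0 reads, and the other 3 groups had none. A count of 0 allows up to 3 reads, or 0.182 to 0.243 CPM per library, a limit that covers counting error only. No difference was detectable at this depth and none was tested.

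The class IIa gene *Hdac9* (ENSMUSG00000004698, chromosome 12, 34047580 to 34917095, minus strand) encodes an enzyme best known for restraining MEF2 in muscle, and it had the largest response to BRD3308. In WT-ERG cells it was at 6.91, 6.78, 7.48 and 8.64 CPM with BRD3308, against 3.37, 4.61, 4.90 and 4.70 CPM with DMSO. Every BRD3308 library was above every DMSO library. The log2 fold change was 0.75 (SE 0.119, edgeR adjusted p = 6.97e-06), or 1.68-fold. In P199L-ERG cells it was at 6.48, 7.54, 7.64 and 7.02 CPM with BRD3308, against 3.99, 3.76, 4.52 and 4.64 CPM with DMSO, again without overlap. The log2 fold change there was 0.77 (SE 0.120, adjusted p = 5.97e-06). In BB cells it was at 6.03, 5.80, 6.67 and 7.01 CPM with BRD3308, against 3.79, 5.01, 4.64 and 5.28 CPM with DMSO. These groups did not overlap either, and the log2 fold change was 0.45 (SE 0.122, adjusted p = 0.00367). The responses of WT-ERG and BB cells differed by 0.31 on the log2 scale (95% confidence interval -0.05 to 0.66, adjusted p = 0.582), and those of P199L-ERG and BB cells by 0.32 (-0.03 to 0.67, adjusted p = 0.438). Neither difference passed, and the intervals are wide.

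The class IIa gene *Hdac7* (ENSMUSG00000022475, chromosome 15, 97792664 to 97844502, minus strand) is known for its role in lymphocytes and endothelium. It was at 57.4, 57.4, 53.3 and 58.6 CPM in BRD3308-treated WT-ERG cells, against 49.1, 51.1, 50.6 and 43.9 CPM in DMSO-treated WT-ERG cells. The groups did not overlap and the log2 fold change was 0.22 (SE 0.0547, edgeR adjusted p = 0.0017). In BB cells it was at 49.4, 51.8, 51.1 and 52.4 CPM with BRD3308, against 37.2, 45.6, 43.3 and 43.6 CPM with DMSO. Here too every treated library was higher, by 0.27 on the log2 scale (SE 0.0562, adjusted p = 0.00026). In P199L-ERG cells it was at 51.7, 53.4, 57.1 and 56.7 CPM with BRD3308, against 48.0, 49.5, 50.8 and 48.1 CPM with DMSO. The log2 fold change of 0.16 (SE 0.0547) passed with an adjusted p of 0.0198. It no longer passed without replicate 3 (0.13, adjusted p = 0.0737) or replicate 4 (0.14, adjusted p = 0.0667) of the BRD3308-treated P199L-ERG cells. *Hdac7* shares 29 exon bases with *Slc48a1* on the opposite strand, a gene with 113746 reads over all libraries against 17953 for *Hdac7*, and the strand setting of the counts is not given in the sources used here.

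*Hdac4* (ENSMUSG00000026313, chromosome 1, 91928779 to 92195699, minus strand), the class IIa enzyme known for restraining bone and muscle differentiation, rose with BRD3308 in both ERG lines. In WT-ERG cells it was at 60.7, 60.9, 61.3 and 62.1 CPM with BRD3308, against 53.1, 47.7, 48.5 and 48.1 CPM with DMSO. The log2 fold change was 0.31 (SE 0.0467, edgeR adjusted p = 3.09e-06), with no overlap. In P199L-ERG cells it was at 57.4, 57.2, 57.8 and 61.7 CPM with BRD3308, against 51.9, 48.4, 48.4 and 46.6 CPM with DMSO. The change of 0.26 (SE 0.0467, adjusted p = 3.90e-05) also came without overlap. BB cells had 62.5, 62.5, 69.3 and 68.3 CPM with BRD3308, against 64.0, 61.1, 60.4 and 63.6 CPM with DMSO. These groups overlapped and the log2 fold change of 0.08 (95% confidence interval -0.02 to 0.17) did not pass (adjusted p = 0.177).

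The difference between responses was tested for *Hdac4* directly. The response of WT-ERG cells exceeded that of BB cells by 0.23 on the log2 scale (SE 0.0654, 95% confidence interval 0.10 to 0.37), with an edgeR adjusted p of 0.0653 over all genes. It passed with DESeq2 (0.24, adjusted p = 0.0374) and without DMSO replicate 1 of WT-ERG cells (0.27, adjusted p = 0.0308). For P199L-ERG cells the excess over BB cells was 0.18 (95% confidence interval 0.05 to 0.32, adjusted p = 0.214), and the responses of P199L-ERG and WT-ERG cells differed by -0.05 (-0.19 to 0.08, adjusted p = 0.955). None of the 6 tested deacetylases passed in these 3 tests, against 1.73% of all genes tested for WT-ERG minus BB, 1.05% for P199L-ERG minus BB and 0.0463% for P199L-ERG minus WT-ERG. With an unadjusted p under 0.05 the counts were 1 (*Hdac4*), 2 (*Hdac4* and *Hdac10*) and 1 (*Hdac6*). The share of all genes at that unadjusted threshold was not counted, so these counts have no background. DESeq2 called 1, 0 and 0, and limma-voom called 0 in each. For *Hdac10* the response differed from that of BB cells by -0.20 in WT-ERG cells and -0.33 in P199L-ERG cells (adjusted p = 0.728 and 0.339), and by -0.13 between P199L-ERG and WT-ERG cells (0.95). For *Hdac6* the differences over BB were -0.01 and 0.16 (adjusted p = 0.977 and 0.405), for *Hdac5* 0.07 and 0.05 (0.828 and 0.831), and for *Hdac7* -0.05 and -0.11 (0.902 and 0.572). Between P199L-ERG and WT-ERG cells the responses differed by -0.02 for *Hdac5*, -0.06 for *Hdac7* and 0.02 for *Hdac9* (adjusted p = 0.982, 0.955 and 0.995).

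**Figure D2:**
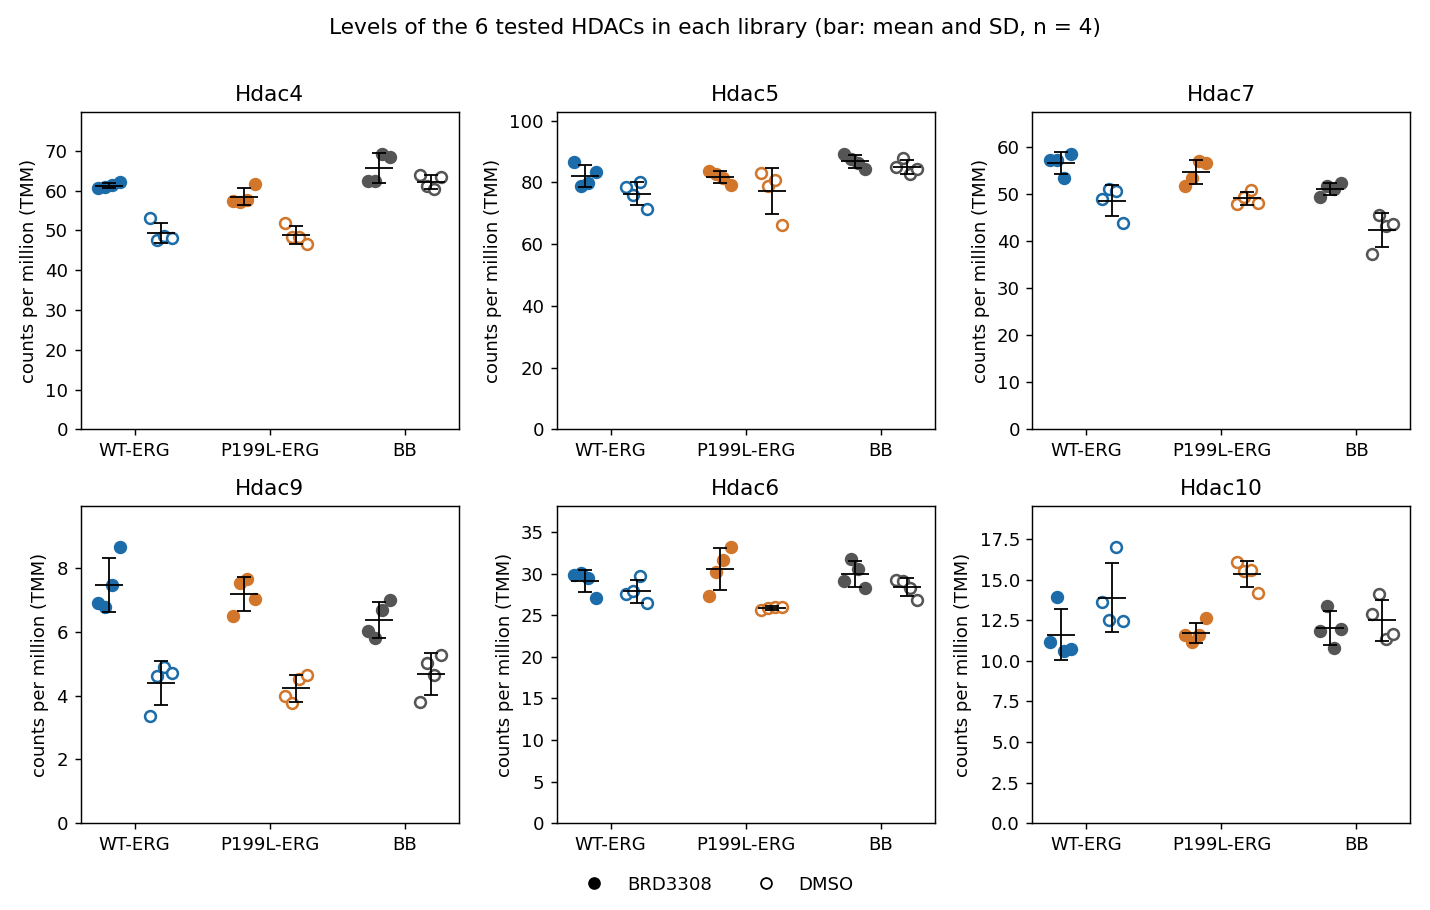
CPM, from library sizes scaled by TMM, of the 6 tested deacetylases in each of 24 libraries, by construct. Filled points are BRD3308 and open points DMSO, and bars give the mean and SD of 4 libraries. Filled and open points are fully apart for *Hdac7* and *Hdac9* in all 3 constructs and for *Hdac4* in both ERG lines but not in BB cells. They are also apart for *Hdac6* and *Hdac10* in P199L-ERG cells, where *Hdac10* is lower with BRD3308. The share of all genes with points fully apart was not counted.

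*Hdac5* (ENSMUSG00000008855, chromosome 11, 102194432 to 102230166, minus strand), a class IIa enzyme and target of the PKD kinases, did not pass in any construct. In WT-ERG cells it was at 86.6, 78.8, 79.7 and 83.5 CPM with BRD3308, against 78.4, 75.9, 80.0 and 71.2 CPM with DMSO. These groups overlapped, and the log2 fold change was 0.10 (95% confidence interval -0.00369 to 0.21, edgeR adjusted p = 0.105). It was 0.08 in P199L-ERG cells (-0.03 to 0.19, adjusted p = 0.211) and 0.03 in BB cells (-0.08 to 0.14, adjusted p = 0.666). The upper ends of these intervals bound a rise at 0.21 on the log2 scale. In WT-ERG cells *Hdac5* passed when only genes with more than 30 reads in every library were kept (0.14, adjusted p = 0.0295).

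Of the class IIb genes, *Hdac6* (ENSMUSG00000031161, chromosome X, 7930120 to 7947889, minus strand) encodes the tubulin deacetylase. In P199L-ERG cells it was at 27.3, 30.2, 31.7 and 33.2 CPM with BRD3308, against 25.6, 25.9, 26.0 and 26.0 CPM with DMSO. The DMSO libraries lay close together and below all treated ones, and the log2 fold change was 0.24 (SE 0.0577, edgeR adjusted p = 0.00106). In WT-ERG cells it was at 29.9, 30.1, 29.4 and 27.1 CPM with BRD3308, against 27.5, 27.9, 29.8 and 26.5 CPM with DMSO. These values overlapped, and neither the change of 0.06 (95% confidence interval -0.06 to 0.18, adjusted p = 0.40) nor that of 0.08 in BB cells (-0.04 to 0.19, adjusted p = 0.30) passed. The response of P199L-ERG cells exceeded that of WT-ERG cells by 0.18 (0.01 to 0.35), which did not pass over all genes (adjusted p = 0.79).

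*Hdac10* (ENSMUSG00000062906, chromosome 15, 89123307 to 89128700, minus strand) encodes the polyamine deacetylase and was lower with BRD3308 in the ERG lines. In P199L-ERG cells it was at 11.6, 11.2, 11.6 and 12.6 CPM with BRD3308, against 16.1, 15.6, 15.6 and 14.2 CPM with DMSO. The groups did not overlap and the log2 fold change was -0.39 (SE 0.0989, edgeR adjusted p = 0.00175). In WT-ERG cells it was at 11.2, 13.9, 10.6 and 10.7 CPM with BRD3308, against 13.6, 12.5, 17.0 and 12.5 CPM with DMSO. Replicate 2 of the treated cells was above 3 of the 4 DMSO libraries, so the groups overlapped, and the change of -0.26 (SE 0.101) passed with an adjusted p of 0.035. It did not pass when only genes with more than 30 reads in every library were kept (-0.22, adjusted p = 0.0685) or with only the groups compared (-0.25, adjusted p = 0.0739). Nor did it pass without replicate 3 of the DMSO-treated cells (-0.14, adjusted p = 0.244) or without replicate 1, 3 or 4 of the BRD3308-treated cells (-0.25, -0.23 and -0.23, with adjusted p = 0.0724, 0.0956 and 0.0838). In BB cells the values were 11.9, 13.4, 10.8 and 12.0 CPM with BRD3308 and 12.9, 14.1, 11.3 and 11.7 CPM with DMSO, with a log2 fold change of -0.06 (95% confidence interval -0.27 to 0.15, adjusted p = 0.648).

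Counted over the family, BRD3308 raised 3 and lowered 1 of the 6 tested genes in WT-ERG cells, where 24.7% of all tested genes rose and 23.2% fell. In P199L-ERG cells 4 rose and 1 fell, against 24.4% and 24.1% of all genes. In BB cells 2 rose and 0 fell, against 24% and 22%. These backgrounds are large, and with 6 genes the counts set nothing apart from them. With DESeq2 and with limma-voom the numbers passing in either direction were also 4, 5 and 2. The median log2 fold change of the 6 genes was 0.16 in WT-ERG cells (all genes -0.00148), 0.20 in P199L-ERG cells (-0.00616) and 0.08 in BB cells (0.00558). The median size of change regardless of direction was 0.24, 0.25 and 0.08, against 0.20, 0.20 and 0.19 over all genes. Summed per length, the 7 genes amounted to 29.6 to 31.1 RPKM in BRD3308-treated WT-ERG libraries, against 26.2 to 30.1 with DMSO. The sums were 29.4 to 31.2 against 26.6 to 29.3 RPKM in P199L-ERG cells and 30.4 to 31.4 against 28.2 to 30.1 RPKM in BB cells. The class I sum was 70.6 to 74.9 against 72.8 to 79.0 RPKM in WT-ERG cells, 76.6 to 79.4 against 75.3 to 90.7 RPKM in P199L-ERG cells and 72.4 to 74.3 against 71.4 to 73.8 RPKM in BB cells.

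**Figure D3:**
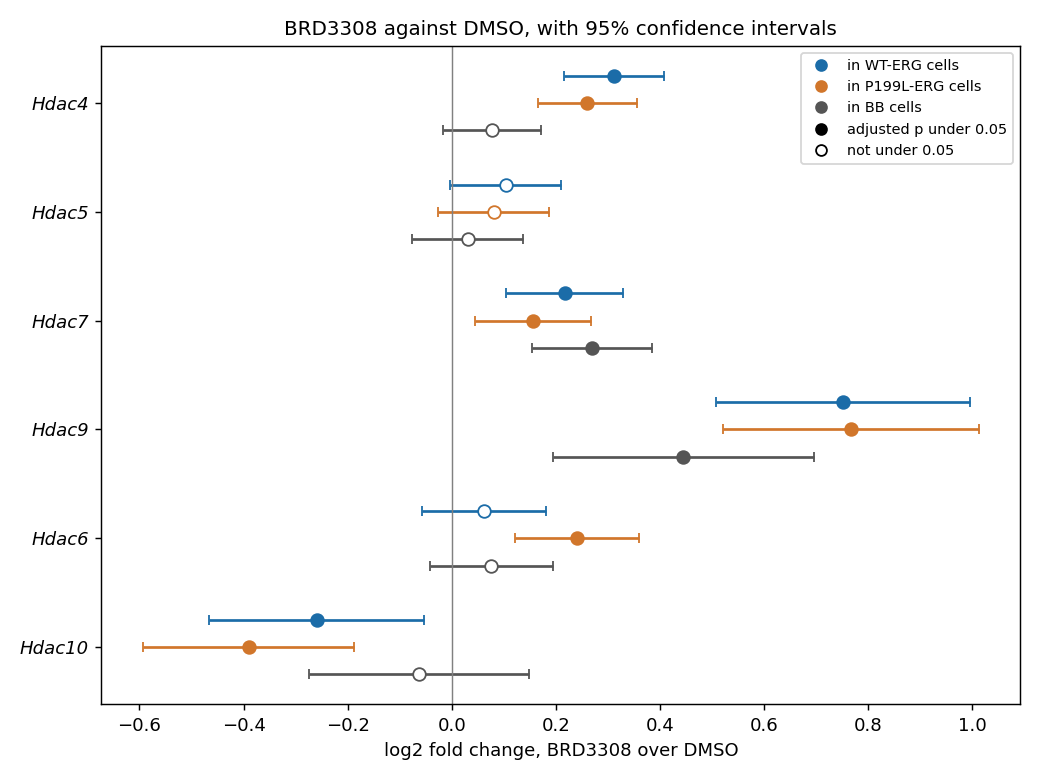
Log2 fold change of BRD3308 over DMSO (points) with 95% confidence intervals (bars) for 6 deacetylases in WT-ERG, P199L-ERG and BB cells. Filled points had an adjusted p under 0.05. *Hdac7* and *Hdac9* are filled in all 3 constructs, *Hdac4* in both ERG lines at 0.31 and 0.26, *Hdac6* in P199L-ERG cells, and *Hdac10* lies below 0 in both ERG lines.

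Markers of mature myeloid cells moved with the treatment. The summed level of 7 neutrophil markers was 5111 to 6449 CPM in BRD3308-treated WT-ERG libraries, against 2143 to 3098 with DMSO. In P199L-ERG cells it was 4719 to 5473 against 1745 to 2602 CPM, and in BB cells 4394 to 5931 against 2448 to 3125 CPM. The 7 monocyte and macrophage markers summed to 2367 to 2627 against 795 to 876 CPM in WT-ERG cells, 2768 to 2946 against 1062 to 1153 CPM in P199L-ERG cells and 3553 to 3814 against 1772 to 1933 CPM in BB cells. All 14 of these markers had reads in every library. The 9 progenitor markers summed to 25624 to 26806 against 26556 to 28739 CPM in WT-ERG cells, 26450 to 27882 against 28233 to 31451 CPM in P199L-ERG cells and 23256 to 24934 against 26104 to 26658 CPM in BB cells. Mast cell and basophil markers were lower after BRD3308, at 154 to 170 against 303 to 338 CPM in WT-ERG cells, 125 to 130 against 231 to 277 CPM in P199L-ERG cells and 71.0 to 77.2 against 125 to 137 CPM in BB cells, and *Fcer1a* of that list was at 0 throughout. T and NK markers summed to at most 0.795 CPM with *Cd4* and *Ncr1* at 0, and erythroid markers to at most 3.60 CPM with *Hba-a1* at 0. The 5 B lymphocyte markers were low but higher with BRD3308, at 39.6 to 45.5 against 21.5 to 27.2 CPM in WT-ERG cells, 36.3 to 36.9 against 23.3 to 26.2 CPM in P199L-ERG cells and 47.7 to 51.1 against 27.4 to 30.9 CPM in BB cells. The 5 megakaryocyte markers summed to 52.2 to 54.1 against 63.7 to 69.9 CPM in WT-ERG cells, 40.3 to 44.4 against 44.9 to 47.9 CPM in P199L-ERG cells and 39.1 to 47.6 against 24.4 to 28.6 CPM in BB cells, so that they were lower with BRD3308 in the ERG lines and higher in BB cells. The part of these shifts in the changes of the deacetylases was not tested. In bulk RNA, more cells of a type and more RNA per cell cannot be told apart.

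Without the inhibitor, cells with ERG differed from BB cells in 3 of the 6 genes for WT-ERG and 4 of 6 for P199L-ERG, against 29.7% and 28.2% of all tested genes. *Hdac4* had the largest difference. Its 47.7 to 53.1 CPM in DMSO-treated WT-ERG cells and 46.6 to 51.9 CPM in P199L-ERG cells lay below all BB libraries, at 60.4 to 64.0 CPM. The log2 fold change was -0.34 for WT-ERG (SE 0.0468, edgeR adjusted p = 2.04e-06) and -0.35 for P199L-ERG (SE 0.0468, adjusted p = 1.53e-06). Both comparisons share the BB libraries.

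*Hdac5* was lower by 0.15 on the log2 scale in WT-ERG cells than in BB cells (95% confidence interval -0.26 to -0.05, edgeR adjusted p = 0.0273), with 71.2 to 80.0 CPM against 82.6 to 87.9 CPM. In P199L-ERG cells the difference was -0.14 (-0.24 to -0.03, adjusted p = 0.049), with 66.1 to 82.9 CPM, and the groups overlapped. Both calls changed with single libraries. They were also lost with library size alone (WT-ERG -0.148, edgeR adjusted p = 0.0554, and P199L-ERG -0.146, adjusted p = 0.062). With only the groups compared, the P199L-ERG difference did not pass (-0.149, edgeR adjusted p = 0.157). Without both short-gene libraries the P199L-ERG value was -0.07 (adjusted p = 0.18), and leaving out single libraries ended the call for P199L-ERG in 6 of 8 cases (-0.15 to -0.07, adjusted p 0.0563 to 0.218) and for WT-ERG in 4 of 8 (-0.15 to -0.12, adjusted p 0.0504 to 0.101). These were replicates 1, 2, 3 and 4 of BB and 2 and 4 of P199L-ERG for the mutant, and replicates 1 and 2 of BB and 2 and 4 of WT-ERG for the wild type.

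*Hdac7* was higher in ERG-expressing cells, with 43.9 to 51.1 CPM in WT-ERG cells and 48.0 to 50.8 CPM in P199L-ERG cells, against 37.2 to 45.6 CPM in BB cells. The log2 fold change was 0.20 for WT-ERG (SE 0.0563, edgeR adjusted p = 0.00747, groups overlapping) and 0.21 for P199L-ERG (SE 0.0562, adjusted p = 0.00568, no overlap). The P199L-ERG difference did not pass with only the groups compared (0.20, edgeR adjusted p = 0.0521). DMSO replicate 1 of BB was the lowest library at 37.2 CPM, and leaving it out gave a WT-ERG value of 0.14 (adjusted p = 0.051) and left 1 gene, *Hdac4*, passing for WT-ERG against BB. *Hdac10* was higher in P199L-ERG cells, at 14.2 to 16.1 CPM against 11.3 to 14.1 CPM in BB cells (0.29, SE 0.0991, adjusted p = 0.0264). This passed neither without replicate 3 or 4 of BB (0.25 and 0.27, adjusted p = 0.0912 and 0.0753) nor without replicate 1 or 3 of P199L-ERG (0.27 and 0.29, adjusted p = 0.057 and 0.0523). *Hdac6* and *Hdac9* did not pass in either line. *Hdac6* was at -0.02 for WT-ERG (adjusted p = 0.818) and -0.13 for P199L-ERG (0.0889), and *Hdac9* at -0.09 (0.665) and -0.15 (0.423). *Hdac10* did not pass for WT-ERG (0.15, adjusted p = 0.269). Marker sums given above for the treatment also differed between constructs with DMSO. Monocyte and macrophage markers were lower in both ERG lines than in BB cells, while mast cell and basophil markers (303 to 338 CPM in WT-ERG cells and 231 to 277 CPM in P199L-ERG cells, against 125 to 137 CPM in BB cells) and megakaryocyte markers (63.7 to 69.9 and 44.9 to 47.9 CPM, against 24.4 to 28.6 CPM) were higher. Their part in these differences was not tested.

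With BRD3308, fewer of the differences between constructs passed. Between WT-ERG and BB cells 0 of the 6 genes passed, against 21.1% of all tested genes, and 0 by DESeq2 or limma-voom. An unadjusted p under 0.05 was found for 2 (*Hdac4* and *Hdac7*), and the share of all genes at that threshold was not counted. *Hdac4* was at 60.7 to 62.1 CPM in WT-ERG cells and 62.5 to 69.3 CPM in BB cells, a log2 fold change of -0.10 (95% confidence interval -0.19 to -0.01, edgeR adjusted p = 0.126). *Hdac7* was at 53.3 to 58.6 CPM in WT-ERG cells and 49.4 to 52.4 CPM in BB cells (0.15, 0.04 to 0.26, adjusted p = 0.0544). The other log2 fold changes were -0.08 for *Hdac5*, 0.22 for *Hdac9*, -0.04 for *Hdac6* and -0.04 for *Hdac10* (adjusted p = 0.319, 0.183, 0.724 and 0.836). Between P199L-ERG and BB cells 1 gene passed, against 16.9% of all genes. It was *Hdac4*, at 57.2 to 61.7 CPM against 62.5 to 69.3 CPM (-0.17, SE 0.0457, adjusted p = 0.0108), and it did not pass without replicate 3 of the BRD3308-treated BB cells (-0.14, adjusted p = 0.0609). The others were at -0.09 for *Hdac5*, 0.10 for *Hdac7*, 0.17 for *Hdac9*, 0.03 for *Hdac6* and -0.03 for *Hdac10* (adjusted p = 0.288, 0.258, 0.351, 0.803 and 0.894). Whether the *Hdac4* difference changed with treatment is the same contrast as the difference between responses given above. That contrast did not pass for WT-ERG (edgeR adjusted p = 0.0653) or P199L-ERG cells (0.214).

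**Figure D4:**
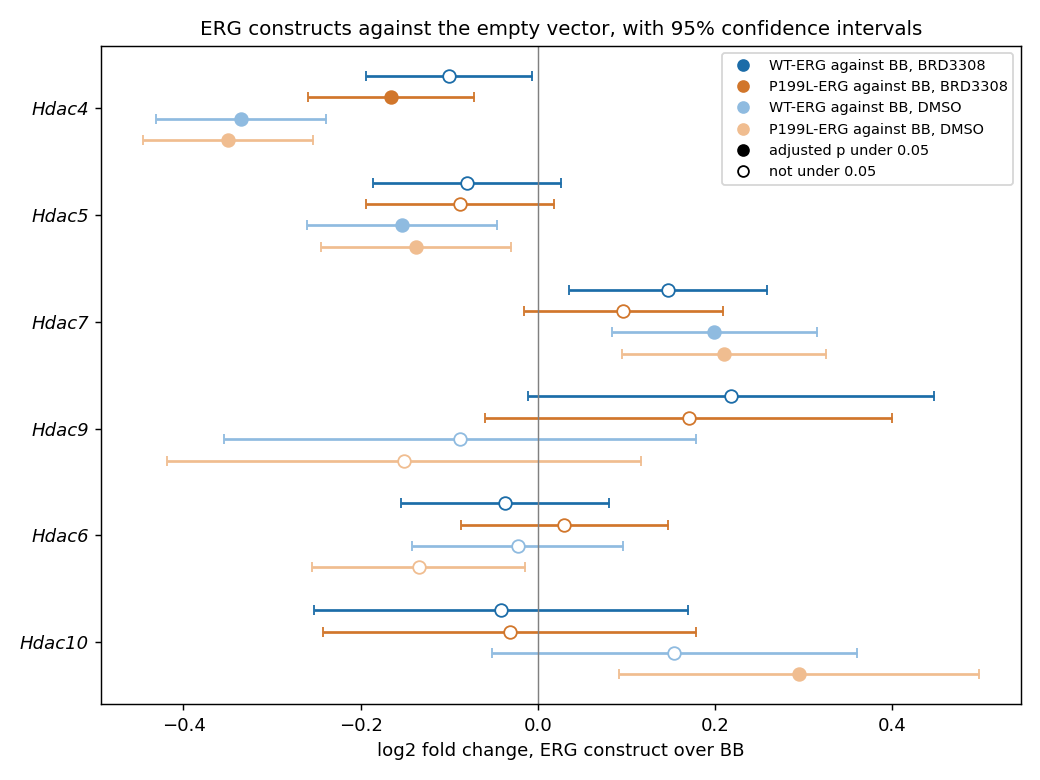
Log2 fold change of each ERG construct over BB (points) with 95% confidence intervals (bars) for 6 deacetylases, with BRD3308 (dark) and with DMSO (light). Filled points had an adjusted p under 0.05. *Hdac4* lies at -0.34 and -0.35 with DMSO and at -0.10 and -0.17 with BRD3308, and *Hdac7* lies above 0 in all 4 comparisons, filled in both with DMSO.

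No difference between P199L-ERG and WT-ERG cells passed the test for these genes. With DMSO 0 of 6 passed, against 4.67% of all tested genes, and with BRD3308 0 of 6 passed, against 3.4%. The same counts of 0 were found at an unadjusted p under 0.05, with DESeq2 and with limma-voom. The share of all genes at the unadjusted threshold was not counted. The confidence interval of the difference with DMSO ran from -0.11 to 0.08 for *Hdac4* and from -0.10 to 0.12 for *Hdac7*. It ran from -0.09 to 0.12 for *Hdac5*, from -0.33 to 0.21 for *Hdac9* and from -0.06 to 0.34 for *Hdac10*. For *Hdac6* the log2 fold change with DMSO was -0.11 (-0.23 to 0.01, edgeR adjusted p = 0.355). Its DMSO groups did not overlap, at 25.6 to 26.0 CPM in P199L-ERG cells and 26.5 to 29.8 CPM in WT-ERG cells. The share of all genes without overlap was not counted, so this has no background. With BRD3308 the intervals ran from -0.16 to 0.03 for *Hdac4*, from -0.11 to 0.10 for *Hdac5*, from -0.16 to 0.06 for *Hdac7* and from -0.05 to 0.18 for *Hdac6*. They were wider for *Hdac9* (-0.27 to 0.18) and *Hdac10* (-0.20 to 0.22).

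Across the 24 libraries, which share the treatment and construct differences, members varied together to different degrees. As a description, the Pearson correlation of log2 CPM was 0.71 between *Hdac4* and *Hdac5*, 0.71 between *Hdac7* and *Hdac9*, and 0.09 between *Hdac4* and *Hdac7*. *Hdac10* ran opposite to *Hdac9* (-0.66) and *Hdac4* (-0.63). Among the 9817 genes whose log2 CPM averaged 2 or more, the pattern of *Hdac4* was most like those of *Baz2b* (r = 0.94), *Abcc5* (0.94) and *Abca13* (0.94). *Hdac9* was most like *Spred3* (0.93), *S100a8* (0.93), a neutrophil marker, and *Sytl1* (0.93). *Hdac5* was most like *Plekho2* (0.93), *Inpp5d* (0.92) and *Cbl* (0.91), and *Hdac7* most like *Tfr2* (0.90), *Egfl7* (0.89) and *Evl* (0.89). *Hdac6* and *Hdac10* had no such close partners, with highest correlations of 0.76 for *Prkce* and 0.76 for *Tyw1*.

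Genes that work with these enzymes were read from 9 lists with 66 genes, of which 61 were tested. Their counts stand against the share of all tested genes that rose and fell with BRD3308: 24.7% and 23.2% in WT-ERG cells, 24.4% and 24.1% in P199L-ERG cells, and 24% and 22% in BB cells. With 1 to 12 genes tested in each list, the counts are descriptions and single out none of the lists. In the class I and NCoR list, 3 of 9 rose and 3 fell with BRD3308 in WT-ERG cells, with a median log2 fold change of 0.01. *Tbl1x*, a subunit of the NCoR complex, rose by 0.33 in WT-ERG, 0.36 in P199L-ERG and 0.33 in BB cells (edgeR adjusted p = 2.56e-08, 4.19e-09 and 1.87e-08). *Hdac1* rose in all 3 (0.15, 0.13 and 0.19) and *Gps2*, another NCoR subunit, fell in all 3 (-0.20, -0.23 and -0.18). *Hdac2* fell in both ERG lines (-0.20 and -0.16) and did not pass in BB cells (-0.08, adjusted p = 0.244). Counts in this list were 3 up and 2 down in P199L-ERG cells and 3 up and 1 down in BB cells. Among 7 sirtuins, the NAD-dependent deacetylases of class III, 2 rose and 1 fell in WT-ERG cells, 2 and 1 in P199L-ERG cells, and 3 and 1 in BB cells. *Sirt1* fell by 0.35, 0.33 and 0.31, while the mitochondrial *Sirt4* rose by 0.43, 0.57 and 0.44 in WT-ERG, P199L-ERG and BB cells.

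The MEF2 factors are partners of class IIa enzymes. Of 3 tested MEF2 factors, *Mef2a* rose by 0.26, 0.38 and 0.22 and *Mef2d* by 0.19, 0.26 and 0.19 in WT-ERG, P199L-ERG and BB cells, while *Mef2c* did not pass (-0.03, -0.08 and -0.02). Of 4 tested MEF2 target genes, 3 rose in WT-ERG cells, 3 in P199L-ERG cells and 1 in BB cells, and none fell, where 24% to 24.7% of all genes rose. *Jun*, a subunit of the AP-1 factor, rose by 1.22, 1.28 and 1.20 (adjusted p = 1.88e-06, 7.24e-07 and 2.85e-07). *Klf2*, a zinc finger factor of quiescent cells, rose by 1.06 and 0.92 in WT-ERG and P199L-ERG cells and was at 0.56 in BB cells (adjusted p = 0.0693). *Klf6* rose by 0.33 and 0.40 in the ERG lines and was at 0.21 in BB cells (adjusted p = 0.0562), and *Nr4a1* did not pass in any (0.45, 0.29 and 0.28). All 4 of these genes are induced by many signals besides the release of MEF2.

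Of 12 tested kinases of class IIa enzymes, 4 rose and 4 fell in WT-ERG cells, 4 and 3 in P199L-ERG cells, and 2 and 3 in BB cells. In WT-ERG cells *Camk1* (0.38) and *Camk2d* (0.31), both calcium and calmodulin dependent, rose, and *Sik1* (-0.39) and *Prkd2* (-0.32) fell. Of the 7 14-3-3 genes, 0 rose and 2 fell in WT-ERG cells, 1 and 1 in P199L-ERG cells, and none passed in BB cells. *Ywhae* fell by 0.16 in both ERG lines and *Ywhaz* by 0.14 in WT-ERG cells, and *Ywhag* rose by 0.20 in P199L-ERG cells. *Ywhah* did not pass in any construct (-0.03 in WT-ERG cells).

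Among 10 tested substrates and partners of HDAC6, 2 rose and 5 fell in WT-ERG cells, 2 and 5 in P199L-ERG cells, and 3 and 5 in BB cells, where 22% to 24.1% of all genes fell. *Vcp*, the segregase that works with HDAC6 on ubiquitinated proteins, fell by 0.27, 0.33 and 0.30 in WT-ERG, P199L-ERG and BB cells. The tubulin gene *Tuba4a* fell by 0.33, 0.40 and 0.32 and *Plaa* by 0.18, 0.15 and 0.16. Against this direction, *Tuba1a* rose by 0.37, 0.26 and 0.60 and the autophagy receptor *Sqstm1* by 0.24, 0.13 and 0.39. Near-identical tubulin genes share reads, so values of single members are uncertain.

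Of 8 polyamine enzymes, 3 rose and 3 fell in WT-ERG cells, 2 and 2 in P199L-ERG cells, and 3 and 3 in BB cells. *Odc1*, which makes putrescine, fell by 0.47, 0.33 and 0.14 and the spermidine synthase *Srm* by 0.32, 0.29 and 0.19. *Sat1*, which acetylates polyamines for breakdown, rose by 0.63, 0.42 and 0.64, and *Paox*, which oxidises acetylated polyamines, by 0.34 in WT-ERG and 0.20 in BB cells. The spermine oxidase *Smox*, named after its values were seen because it stands apart in the plot of the lists, rose by 1.96, 3.37 and 1.84. Its mean was only 0.487, 0.768 and 0.456 CPM with BRD3308, against 0.119, 0.0674 and 0.126 CPM with DMSO. The size of these changes and their order among the constructs rest on DMSO levels near 0. *Shmt2*, a substrate of HDAC11, fell by 0.24, 0.18 and 0.13, and *Il10* of that list was too low to test.

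**Figure D5:**
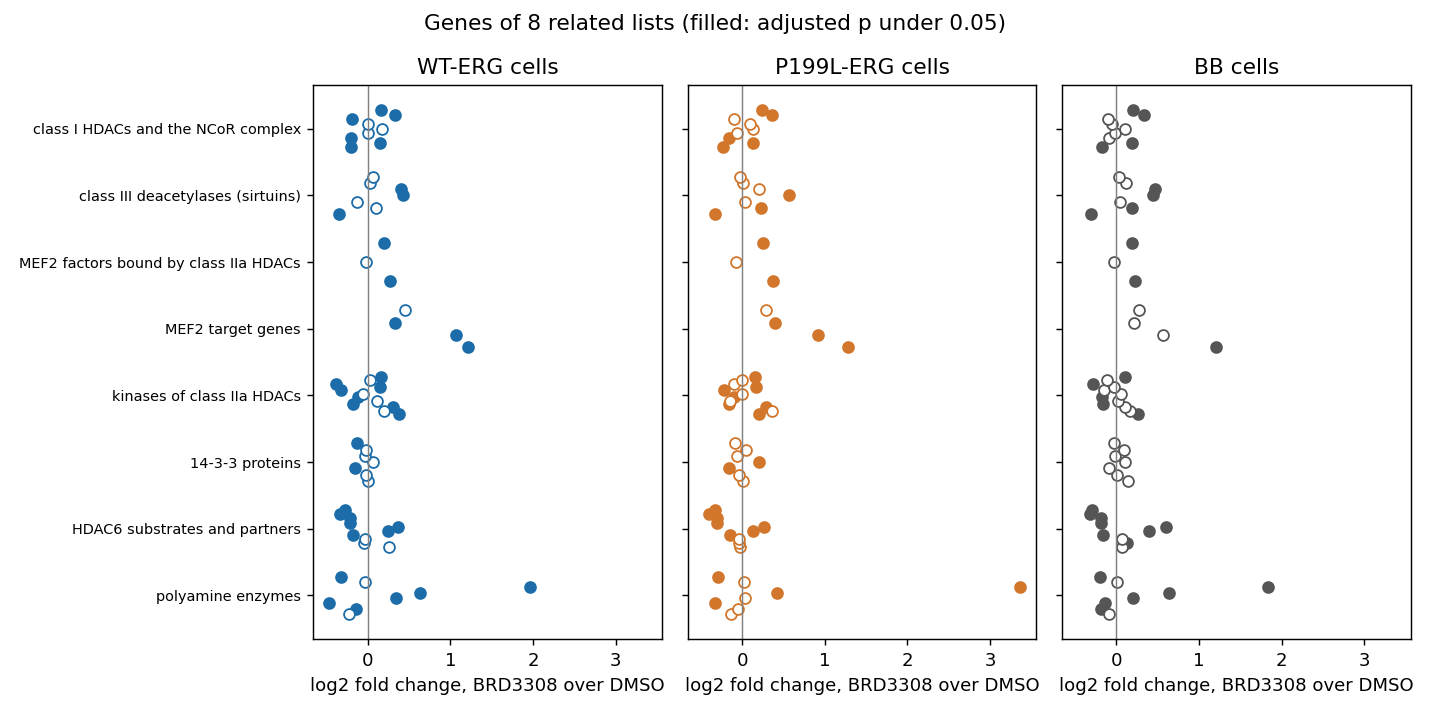
Log2 fold change of BRD3308 over DMSO for the tested genes of 8 lists (1 point per gene), in WT-ERG, P199L-ERG and BB cells. Filled points had an adjusted p under 0.05. Most lists spread to both sides of 0, the MEF2 target genes lie above 0 in each construct, and the far right point is *Smox* at 1.96, 3.37 and 1.84.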

How the data were processed

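RNA was sequenced from 24 ER-Hoxb8 samples, grouped by the labels into 6 groups of 4. Reads under 30 bp were removed by the authors, the rest were aligned to GRCm38 with STAR, and whole-number counts of reads per gene were deposited. Of other tools, the submitters' processing notes name cutadapt, HTSeq and DESeq2. No versions, annotation or strand setting are stated, and the study's text elsewhere gives another time and dose for this experiment. Symbols and merged exon lengths came from GENCODE M21, which matched 53706 of 53801 genes, and promoters from RefSeq.

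Genes were kept by filterByExpr, scaled by TMM, and fitted with the quasi-likelihood test of edgeR 4.0.16 (limma 3.58.1, R 4.3.3) with a coefficient for each group over all libraries. Two-sided p values were adjusted by Benjamini-Hochberg over all 12963 genes, with 0.05 as threshold, and a gene is said to rise or fall where it passed. Standard errors were taken from the F statistic (the size of the log2 fold change over the root of F). Intervals are 95%. RPKM are CPM divided by exon length in kilobases. The fit was tested on simulated data.

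The deacetylases, the lists and the alternatives were chosen with earlier results of these data known. Of each list, up to 4 genes with the smallest p in the BRD3308 response of WT-ERG cells are named, and those that passed against most of their list. Alternatives were RLE factors, library size alone, other filters, DESeq2 1.42.0, limma-voom, only the groups compared, the replicate number as a block, and leaving out libraries. Within groups, no libraries were duplicates of each other, with counts of pairs differing by 1.61 to 28.5 times the sampling variance. Pairs across groups were not compared. The highest values, 16.8, 21.8 and 28.5, were those of DMSO replicate 4 of P199L-ERG with the other libraries of its group, and the next was 9.92.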

Additional observations from a re-analysis of the deposited data

Results flagged for a closer look

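Of 36 sets of 4 libraries (6 genes in 6 groups), 3 had a library far from the other 3 by Dixon's criterion at the 95% level, and chance alone flags about 1 in 20. In WT-ERG cells, DMSO replicate 1 had *Hdac4* at 53.1 CPM, above the 47.7 to 48.5 CPM of the others, and without it the *Hdac4* response of WT-ERG cells exceeded that of BB cells by 0.27 (edgeR adjusted p = 0.0308). Replicate 4 of the BRD3308-treated P199L-ERG cells had *Hdac4* at 61.7 CPM, above 57.2 to 57.8 CPM. Replicate 2 of the BRD3308-treated WT-ERG cells had *Hdac10* at 13.9 CPM, above 10.6 to 11.2 CPM.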

How the results depend on the processing

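For 72 results of single genes, 624 values came from alternatives other than leaving out 1 library. Of these, 608 stayed on the same side of the threshold, 8 lost a call and 8 gained one, and no called value changed sign. Of 720 values with 1 library left out, 22 lost a call and 1 gained one. Both totals include results that did not pass in the main fit, so they are not the numbers of calls that could be lost. The number of genes passing for the BRD3308 response of WT-ERG cells was 4 and ran from 3 to 5 over the alternatives. Of all genes, 3207 were higher and 3010 lower in the main fit. They were 3192 and 3088 of 12319 with only the groups compared, and 3574 and 3503 with the replicate block. The number for WT-ERG against BB with DMSO was 3 and ran from 1 to 3 with a library left out. Of all genes, 2027 were higher and 1825 lower in the main fit. Totals of all genes with a library left out are not given here. For P199L-ERG against BB with DMSO the number passing was 4, fell to 2 with only the groups compared, and ran from 2 to 3 with a library left out. Of all genes, 1981 were higher and 1671 lower in the main fit of 12963. With only the groups compared, 1043 were higher and 1194 lower of 11937. For WT-ERG against BB with BRD3308 it was 0 and became 1 (*Hdac7*) with library size alone, with only the groups compared and with the replicate block. Of all genes, 1353 were higher and 1381 lower in the main fit. Under these alternatives, in order, they were 1538 and 1225, 1555 and 1595, and 1771 and 1815. For P199L-ERG against BB with BRD3308 it was 1 and became 0 with no filter on low counts, with 0 to 1 over libraries left out. Without the filter 976 of 28451 genes were higher and 1042 lower, against 1052 and 1142 of 12963 in the main fit. For the difference between the responses of WT-ERG and BB cells it was 0 and became 1 (*Hdac4*) with more than 30 reads in every library, DESeq2 and the replicate block, with 0 to 1 over libraries left out. Of all genes, 107 were higher and 117 lower in the main fit. Under these alternatives, in order, they were 112 and 106 of 9785 genes, 144 and 137, and 213 and 208. The causes were not tested.

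The labels give all groups replicate numbers 1 to 4. Same-numbered libraries deviated together weakly (r = -0.02 to 0.26, every pair over 0.1 in 0 of 9 comparisons, own number best in 23 of 36). For replicate 1, r was 0.16 to 0.25 and its own number was best in all 9 comparisons. The main fit did not take the numbers as pairs and so leaves out any part that same-numbered libraries share. With the replicate block more genes passed. For the difference between the responses of P199L-ERG and BB cells, 213 genes were higher and 254 lower, against 59 and 77 without the block. With the replicate block *Hdac5* also passed in WT-ERG cells (0.10, edgeR adjusted p = 0.0472). *Hdac9* rested on 48 to 119 reads per library and *Hdac10* on 140 to 274, which limits their precision most.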
